A study of Homo sapiens with 6 samples.

Results

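The enzymes described here make serine, pass its one-carbon units through the folate cycle, and make asparagine. The 10 genes were picked by symbol from the 60419 genes of the deposited tables: PHGDH, PSAT1 and PSPH of serine synthesis, SHMT2, MTHFD2, MTHFD1L and ALDH1L2 of the mitochondrial folate arm, SHMT1 and MTHFD1 of the cytosolic folate arm, and ASNS. RNA was taken from 12Z, a wild-type, immortalised human endometriotic cell line, that is, a line from endometrium-like tissue outside the uterus. One group had 100 µg/mL Myrrh extract, from the resin of Commiphora trees, in DMSO for 12 h, and the other had DMSO, the solvent alone. All cells were kept in medium with 10% charcoal-stripped serum, and each group had 3 libraries. The labels do not say whether these came from separate cultures, so a p-value covers the spread between these libraries, which may be technical, in a single line and at a single dose and time.

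Serine is built from a glycolytic intermediate in 3 steps, and the hydroxymethyltransferases then move a carbon from serine to tetrahydrofolate, which leaves glycine. That carbon can be oxidised in mitochondria and released as formate, or be handled by a parallel set of enzymes in the cytosol, where it feeds purine, thymidylate and methionine synthesis. Asparagine synthetase makes asparagine from aspartate, with glutamine as the nitrogen donor. Several of these genes are textbook targets of ATF4, the transcription factor of the amino acid response, which binds C/EBP-ATF response elements.

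Both arms of the folate pathway moved, and they moved in opposite directions. All 4 mitochondrial enzymes rose in the Myrrh libraries, with log2 fold changes of 0.93 to 1.41, and both cytosolic enzymes fell, with -0.28 and -0.83. The 3 serine synthesis enzymes rose by less, from 0.33 to 0.66, and ASNS rose the most, by 1.71. Each of the 10 genes had enough counts to be tested, and all were called at an adjusted p of 0.05 (edgeR quasi-likelihood F-test, Benjamini-Hochberg over 16395 genes). Of these, 8 were higher and 2 lower in Myrrh, and the highest adjusted p was 2.13e-05. Much of the transcriptome differed between the groups. Of all tested genes, 39.3% were called higher and 39.1% lower in Myrrh, so a call alone sets no gene apart. A rise of at least 2-fold was called for 4 of the 10 genes, ASNS, MTHFD2, SHMT2 and MTHFD1L, against 11.3% of all tested genes. A fall of at least 2-fold was called for 18.0% of all tested genes, and the lowest of the 10, SHMT1, stood at 0.561 of its DMSO level, short of that size. The groups did not overlap in any of the 10 genes, as in 80.3% of all tested genes. The median log2 fold change was 0.79 over the 10 genes and -0.02 over all genes tested. The 10 genes were chosen with earlier results of these data known, so these contrasts with all genes only describe the set.

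**Figure D1:**
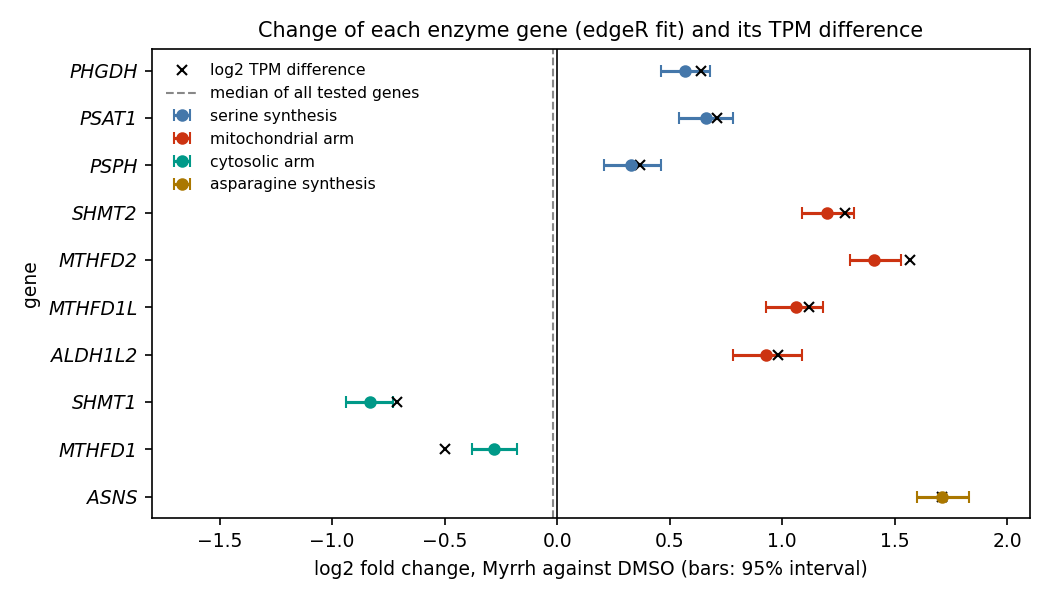
Log2 fold change of each enzyme gene, Myrrh against DMSO (horizontal axis), from the edgeR fit on estimated counts, with its 95% interval, coloured by role; crosses are differences of mean log2 TPM. ASNS is farthest to the right at 1.71, the mitochondrial arm lies between 0.93 and 1.41, and SHMT1 (-0.83) and MTHFD1 (-0.28) are left of 0; the MTHFD1 cross lies at -0.50, outside its interval.

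The libraries held 22454783 to 27588151 estimated counts. The keratin and stromal genes among the cell type markers were well expressed, with the 5 epithelial markers at 1568 to 1599 TPM in sum in DMSO and 1155 to 1258 in Myrrh, and the 5 stromal markers at 3616 to 3671 and 1796 to 1899. CDH1, an epithelial cadherin, had too few counts to be tested. The 4 endothelial markers summed to 0.1 to 0.27 TPM in DMSO and 0.03 to 0.09 in Myrrh, with CDH5 at 0 counts, and 4 leukocyte markers to 2.36 to 3.24 and 0.49 to 0.7, with CD3E at 0. Single markers did not all follow these sums: EPCAM, an epithelial adhesion molecule, rose by 1.13 ± 0.23 and MME, a stromal peptidase, by 0.24 ± 0.06. EPCAM was scarce, with a mean of 1.12 TPM in DMSO and 2.54 TPM in Myrrh. The part of these marker changes in the results below was not tested. All RNA came from a single line, and bulk RNA does not show whether a change was shared by all of its cells.

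PHGDH, phosphoglycerate dehydrogenase, takes the first step of serine synthesis. It stood at 259, 248 and 264 TPM (a transcript level per length, scaled to a fixed sum in each library) in the DMSO libraries and at 405, 383 and 416 TPM in the Myrrh libraries. Every Myrrh library was above every DMSO library. In CPM, counts scaled to library size, the means were 319 ± 1.39 and 472 ± 15 (SD, n = 3), and the log2 fold change was 0.57 ± 0.05 (SE), or 1.48-fold. This value was higher than that of 75.8% of all tested genes. PSAT1, the aminotransferase of the second step, had 159.8, 159.05 and 163.1 TPM in DMSO against 274, 268 and 246 TPM in Myrrh. The Myrrh libraries were again all higher, and they were spread more widely than the DMSO libraries. PSAT1 rose by 0.66 ± 0.06 on the log2 scale (95% interval 0.54 to 0.78).

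PSPH, the phosphatase that releases serine in the last step, was the least abundant of the 3. Its level was 25.6, 23.1 and 26.0 TPM in DMSO and 33.0, 30.5 and 32.8 TPM in Myrrh. The gap between the highest DMSO and the lowest Myrrh library was narrow, but the groups did not overlap. PSPH rose by 0.33 ± 0.06 (95% interval 0.21 to 0.46), rank 5587 from the top among the tested genes, with an adjusted p of 2.13e-05 by edgeR's quasi-likelihood test. The summed TPM of the serine synthesis enzymes was 445, 430 and 453 in DMSO and 712, 681 and 695 in Myrrh, and PHGDH was the largest part of it in all 6 libraries.

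**Figure D2:**
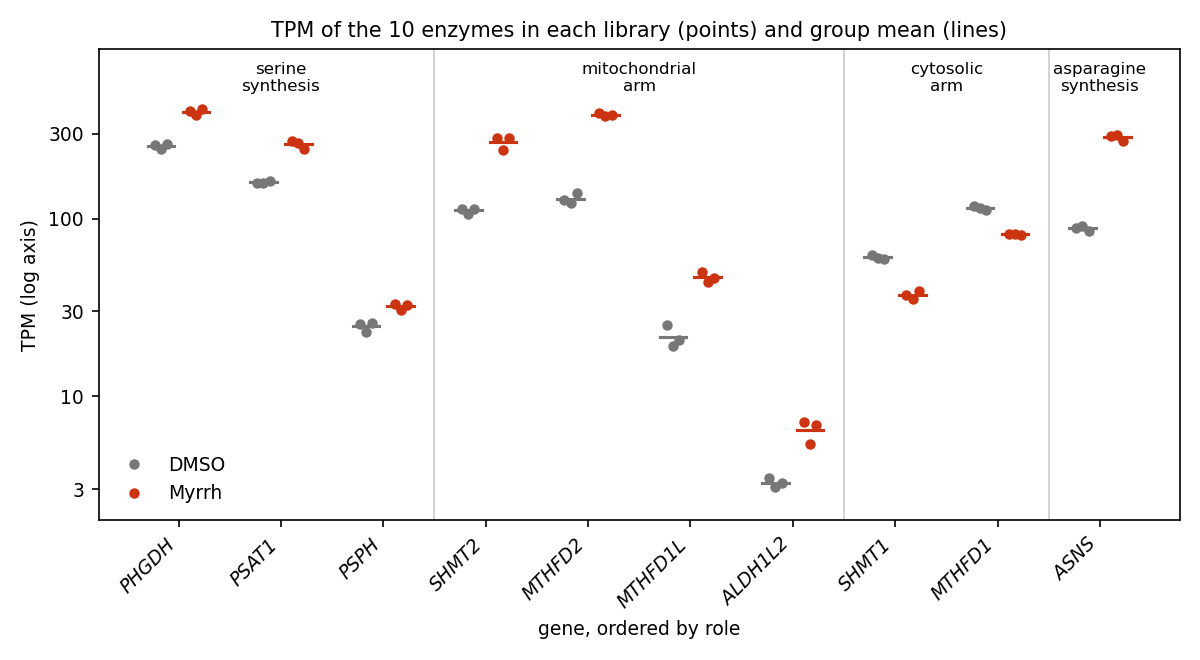
TPM of the 10 enzyme genes on a log axis, with 1 point per library (grey, DMSO; red, Myrrh) and a line at the mean of 3 libraries, ordered by role. The red points lie above the grey ones in 8 genes and below them in SHMT1 and MTHFD1, and ALDH1L2 is the lowest gene in both groups.

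SHMT2, the mitochondrial serine hydroxymethyltransferase, splits serine into glycine and a one-carbon unit. It was at 113, 107 and 114 TPM in DMSO and at 283, 244 and 285 TPM in Myrrh. All Myrrh libraries were at more than 2 times the level of any DMSO library. SHMT2 rose by 1.20 ± 0.06 on the log2 scale, from 162 ± 2.91 to 373 ± 17.3 CPM, with an adjusted p of 1.09e-16 by edgeR's quasi-likelihood test. SHMT1, its cytosolic counterpart, had 62.0, 60.4 and 59.7 TPM in DMSO and 37.0, 35.2 and 39.1 TPM in Myrrh. Each group was tight and the Myrrh libraries were all lower. SHMT1 fell by 0.83 ± 0.05, from 106 ± 2.01 to 59.8 ± 2.48 CPM, with an adjusted p of 6.86e-14 by the same test, and 21.8% of all tested genes had a lower log2 fold change.

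MTHFD2, the mitochondrial methylenetetrahydrofolate dehydrogenase and cyclohydrolase, carries the one-carbon unit on to formyl-tetrahydrofolate. Its level was 127, 123 and 139 TPM in DMSO and 395, 379 and 382 TPM in Myrrh. These groups lay far apart compared with the spread within each. MTHFD2 rose by 1.41 ± 0.06 on the log2 scale, a 2.66-fold change, and 94.8% of all tested genes had a lower value. MTHFD1L, the mitochondrial enzyme that releases formate, was at 25.2, 19.1 and 20.7 TPM in DMSO and 50.4, 43.8 and 46.3 TPM in Myrrh. The first DMSO library was the highest of its group, and the groups did not overlap. MTHFD1L rose by 1.06 ± 0.06, or 2.08-fold, so its place among the genes changed at least 2-fold is a close one.

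ALDH1L2, a mitochondrial formyltetrahydrofolate dehydrogenase that yields NADPH, was the scarcest of the 10. It had 3.47, 3.07 and 3.25 TPM in DMSO and 7.16, 5.40 and 6.86 TPM in Myrrh. The second Myrrh library was the lowest of its group and still above every DMSO library. With 443 to 859 estimated counts per library behind it, ALDH1L2 rose by 0.93 ± 0.07 (95% interval 0.78 to 1.09). Its cytosolic relative ALDH1L1 had 0 to 4 estimated counts per library and was not tested, so ALDH1L2 could not be compared with it.

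MTHFD1, the cytosolic enzyme that joins the activities which mitochondria divide between MTHFD2 or MTHFD2L and MTHFD1L, fell the least. Its level was 118, 115 and 112 TPM in DMSO and 81.9, 81.6 and 81.0 TPM in Myrrh. The 3 Myrrh libraries were nearly equal and all lower. On estimated counts MTHFD1 fell by 0.28 ± 0.05 (95% interval -0.38 to -0.18), from 128 ± 2.49 to 105 ± 3.93 CPM, whereas the difference of mean log2 TPM was -0.50. The direction and the call held on both scales. MTHFD2 (1.41 on counts, 1.57 on TPM) and SHMT1 (-0.83 and -0.71) had smaller gaps. The reason for these gaps in size was not tested. MTHFD2L, a second mitochondrial dehydrogenase, was far scarcer than MTHFD2, at 3.45 to 4.42 TPM in DMSO and 4.71 to 6.40 TPM in Myrrh. In CPM it had 5.78 ± 0.0932 in DMSO and 7.43 ± 0.283 in Myrrh. It rose by 0.36 ± 0.11 (adjusted p 0.00519 by edgeR's quasi-likelihood test), a call lost when libraries were scaled by their totals alone (0.22, adjusted p 0.0833; highest adjusted p of its alternatives).

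The 2 arms were then compared within each library, where no scaling between libraries enters. The SHMT2 to SHMT1 ratio of TPM was 1.82, 1.77 and 1.91 in DMSO and 7.66, 6.92 and 7.29 in Myrrh. The mitochondrial transcript was thus the more abundant one in all 6 libraries, and by a wider margin in every Myrrh library. On estimated counts this log2 ratio went from 0.61 ± 0.05 to 2.64 ± 0.10 (SD, n = 3), a difference of 2.03 or 4.10-fold. The MTHFD2 to MTHFD1 ratio of TPM was 1.07, 1.07 and 1.25 in DMSO and 4.82, 4.64 and 4.72 in Myrrh. The 2 transcripts were near parity in DMSO and well apart in Myrrh. Their log2 count ratio differed by 1.69, or 3.23-fold.

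The MTHFD1L to MTHFD1 ratio of TPM was 0.213, 0.166 and 0.186 in DMSO and 0.615, 0.537 and 0.572 in Myrrh. Here the cytosolic transcript stayed the more abundant one in all 6 libraries. The log2 count ratio rose by 1.34, or 2.53-fold. Between the mitochondrial isoenzymes MTHFD2 and MTHFD2L, the log2 count ratio went from 4.87 ± 0.05 to 5.93 ± 0.08, a difference of 1.05. In each of these 4 ratios every Myrrh library exceeded every DMSO library, and the two-sided exact permutation test gave p = 0.1, adjusted p = 0.1 over the 4 ratios. This is the smallest p that 3 libraries against 3 allow, so the test cannot reach 0.05.

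**Figure D3:**
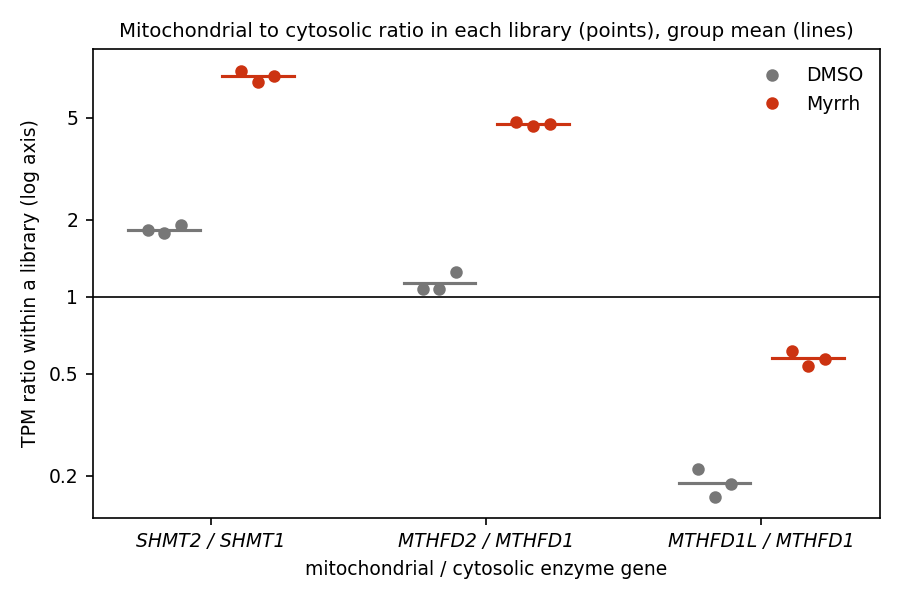
TPM of a mitochondrial enzyme gene divided by that of its cytosolic counterpart in the same library, on a log axis, with 1 point per library and a line at the mean of 3; the horizontal line marks equal levels. SHMT2 / SHMT1 moves from 1.77 to 1.91 up to 6.92 to 7.66, MTHFD2 / MTHFD1 from near 1 to 4.64 to 4.82, and MTHFD1L / MTHFD1 stays below 1.

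Summed over their genes, the mitochondrial arm held 269, 252 and 277 TPM in DMSO and 735, 671 and 720 TPM in Myrrh. The cytosolic arm held 180, 175 and 171 TPM in DMSO and 119, 117 and 120 TPM in Myrrh. The mitochondrial share of both arms was 59.8%, 59.0% and 61.8% in DMSO and 86.1%, 85.2% and 85.7% in Myrrh. These sums describe the 6 genes listed and were not tested.

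ASNS, asparagine synthetase, had 88.7, 90.9 and 85.4 TPM in DMSO and 293, 297 and 275 TPM in Myrrh. Both groups were tight, and the Myrrh libraries stood at about the level of SHMT2 in the same libraries. ASNS rose by 1.71 ± 0.06 on the log2 scale (95% interval 1.60 to 1.83), from 102 ± 2.42 to 333 ± 18.3 CPM, a 3.28-fold change with an adjusted p of 1.14e-19 by edgeR's quasi-likelihood test. It ranked 490 from the top among the 16395 tested genes. Its difference of mean log2 TPM was the same, 1.71. Of 11368 genes with a symbol and a mean of at least 5 CPM, the 3 whose centred log2 CPM over the 6 libraries lay nearest to that of ASNS were ZFAS1 (Euclidean distance 0.053), BAG2 (0.056) and PDRG1 (0.087). Their log2 fold changes were 1.71, 1.70 and 1.73. The 6 libraries form just 2 groups, so this likeness is mainly one of size of change.

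The order of the levels also differed between the groups. In DMSO, by mean TPM, PHGDH (257) led PSAT1 (160.7), MTHFD2 (130), MTHFD1 (115), SHMT2 (111), ASNS (88.4), SHMT1 (60.7), PSPH (24.9), MTHFD1L (21.7) and ALDH1L2 (3.26). The neighbours MTHFD1 and SHMT2, and PSPH and MTHFD1L, overlapped between libraries. In Myrrh the order was PHGDH (401), MTHFD2 (385), ASNS (288), SHMT2 (271), PSAT1 (262), MTHFD1 (81.5), MTHFD1L (46.8), SHMT1 (37.1), PSPH (32.1) and ALDH1L2 (6.47). There PHGDH overlapped with MTHFD2, ASNS with SHMT2, and SHMT2 with PSAT1. MTHFD1 was thus among the 4 highest genes in DMSO and stood well under the 5 highest in Myrrh.

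Because ASNS and the mitochondrial enzymes rose together, the promoter windows of the genes were searched for the core of the C/EBP-ATF response element. RefSeq windows on GRCh38.p14, from 250 bases before a transcript start to 50 after it, were found for 7 of the 10 genes: PHGDH, PSAT1, MTHFD2, MTHFD1L, SHMT1, MTHFD1 and ASNS. The core was written TGATGNAA and read on both strands. It was found for 2 of the 7, ASNS and MTHFD1L, and for 4.46% of the 27305 genes with a window. The stretches of 30 bases round both matches are shown 5′ to 3′ on the gene's strand, with the match in capitals; the ASNS stretch is chr7:97872458-97872487, minus strand, and the MTHFD1L stretch is chr6:150866346-150866375, plus strand.
ASNS: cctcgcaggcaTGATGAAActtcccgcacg
MTHFD1L: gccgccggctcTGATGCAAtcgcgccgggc
The ASNS match begins 68 bases before a RefSeq start. The MTHFD1L match begins 129 bases before one RefSeq start, 90 before another and 24 after the most upstream one. Both matches lie inside their genes in GENCODE release 29, unlike the MTHFD2 and SHMT1 stretches below, which lie ahead of every annotated exon.

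ASNS and MTHFD1L, the genes with a match, rose at least 2-fold. So did MTHFD2, with no match in its window, and SHMT2, for which no window was found. Of the other genes with a window and no match, PHGDH and PSAT1 rose by less, and SHMT1 and MTHFD1 fell. Whether a match goes with the change was not tested. The bases ahead of every annotated MTHFD2 exon are shown beside those of SHMT1, which fell, since these 2 genes moved in opposite directions and neither window held the core. The MTHFD2 stretch is chr2:74198365-74198561, plus strand, and the SHMT1 stretch is chr17:18363564-18363800, minus strand; neither has a match to capitalise.
MTHFD2: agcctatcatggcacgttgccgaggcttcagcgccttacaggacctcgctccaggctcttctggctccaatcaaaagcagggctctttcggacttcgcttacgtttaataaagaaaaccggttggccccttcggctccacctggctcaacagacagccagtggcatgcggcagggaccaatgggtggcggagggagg
SHMT1: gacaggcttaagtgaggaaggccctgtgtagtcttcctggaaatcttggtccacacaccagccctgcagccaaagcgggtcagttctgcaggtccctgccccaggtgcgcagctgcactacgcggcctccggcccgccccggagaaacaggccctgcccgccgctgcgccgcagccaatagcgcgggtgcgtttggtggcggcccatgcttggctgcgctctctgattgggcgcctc
A pair of other motifs was searched in the same way. The antioxidant response element core TGACNNNGC was found for 1 of the 7 genes, MTHFD2, 6 bases after its start, against 16.1% of all genes, and the E-box CACGTG for 2, MTHFD1L and MTHFD1, against 8.77%. No matches of different motifs overlapped. A match is a run of letters in a window, and binding was not measured.

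The genes lie on different chromosomes or far apart. In GENCODE release 29 on GRCh38, ASNS is on chromosome 7 at 97852118 to 97872542 (14 exons in its longest coding transcript), MTHFD2 on chromosome 2 at 74198562 to 74217565 (8 exons), SHMT2 on chromosome 12 at 57229327 to 57234935 (12 exons), SHMT1 on chromosome 17 at 18327860 to 18363563 (12 exons) and MTHFD1 on chromosome 14 at 64388031 to 64463457 (27 exons). Some share their position with a gene on the other strand, and the sources used here do not state whether counting used the strand, so reads from such overlaps cannot be told apart. SMCR8, which lies over exons of SHMT1, went the other way, with 24.8 CPM in DMSO and 69.3 in Myrrh. ZBTB25, over exons of MTHFD1, fell as MTHFD1 did, from 34.7 to 12.7 CPM, beside 128 and 105 CPM for MTHFD1. C12orf45, over exons of ALDH1L2, rose as ALDH1L2 did, from 11.3 to 16.1 CPM. Estimated counts can hold fractions of shared reads. They were whole numbers in all 6 libraries for ALDH1L2, in 1 for MTHFD1 and in 0 for SHMT1, MTHFD2 and ASNS. The part of shared reads in the changes of these genes was not tested. On the same strand, AC079781.5 lies over exons of ASNS and MIR6778 over exons of SHMT1, and reads shared with them were not examined. The 18 pseudogenes named after the 10 enzymes held at most 3 estimated counts in any library. Reads that fit both a gene and its pseudogene were not examined.

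The genes that surround these 10 in their pathways did not share one direction. The 8 lists hold genes of neighbouring pathways and, on 1 list, linked transcription factors. On these lists 58 of 69 genes were tested, 32 were called higher and 17 lower, and their median log2 fold change was 0.22. Over all tested genes 39.3% were called higher and 39.1% lower, with a median of -0.02, and the counts below are to be read against these shares. Of 13 tested genes of the folate cycle and folate transport, 6 rose and 5 fell, near the shares over all genes. SLC25A32, the mitochondrial folate carrier, rose by 1.09 ± 0.06, and TYMS, thymidylate synthase, which uses cytosolic one-carbon units, fell by 1.05 ± 0.05, from 216 ± 0.628 to 105 ± 0.946 CPM. Among 7 genes of glycine cleavage and mitochondrial serine transport, 2 rose and 3 fell. AMT, the aminomethyltransferase of glycine cleavage, fell by 2.51 ± 0.12, from 15.7 ± 0.949 to 2.73 ± 0.5 CPM, and GCSH, the lipoyl carrier protein of the same system, rose by 0.22 ± 0.07.

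Of 9 tested genes that use serine or glycine, 5 rose and 2 fell, where 39.3% and 39.1% of all tested genes did. CTH, cystathionine gamma-lyase, which makes cysteine, rose by 2.55 ± 0.08, from 7.06 ± 0.485 to 41.5 ± 2.17 CPM, and SARDH, sarcosine dehydrogenase, fell by 0.57 ± 0.09. In the methionine cycle 3 of 7 rose and 4 fell, with MTRR, methionine synthase reductase, at 1.01 ± 0.06 and MAT2A, which makes S-adenosylmethionine, at -1.03 ± 0.06. In purine synthesis, which takes up formyl units, 4 of 6 rose and 1 fell. PPAT, its first enzyme, rose by 0.87 ± 0.07 and PFAS fell by 0.21 ± 0.06.

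Of 9 tested enzymes of asparagine, aspartate and glutamate, 6 rose and 2 fell. GOT1, the cytosolic aminotransferase that makes aspartate, the substrate of ASNS, rose by 1.98 ± 0.06, from 41.8 ± 1.21 to 164.98 ± 11.9 CPM. ASS1, which uses aspartate, fell by 0.44 ± 0.05. In proline synthesis 3 of 4 rose, with PYCR1 at 1.23 ± 0.05 and PYCR3 at 0.72 ± 0.12. All 3 transcription factors listed for their known link to serine synthesis genes rose, ATF4 by 0.96 ± 0.06 and MYC by 1.57 ± 0.05 among them, against 39.3% of all tested genes called higher. The highest adjusted p among the genes named from these lists was 0.00557, for GCSH, in the same edgeR test.

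**Figure D4:**
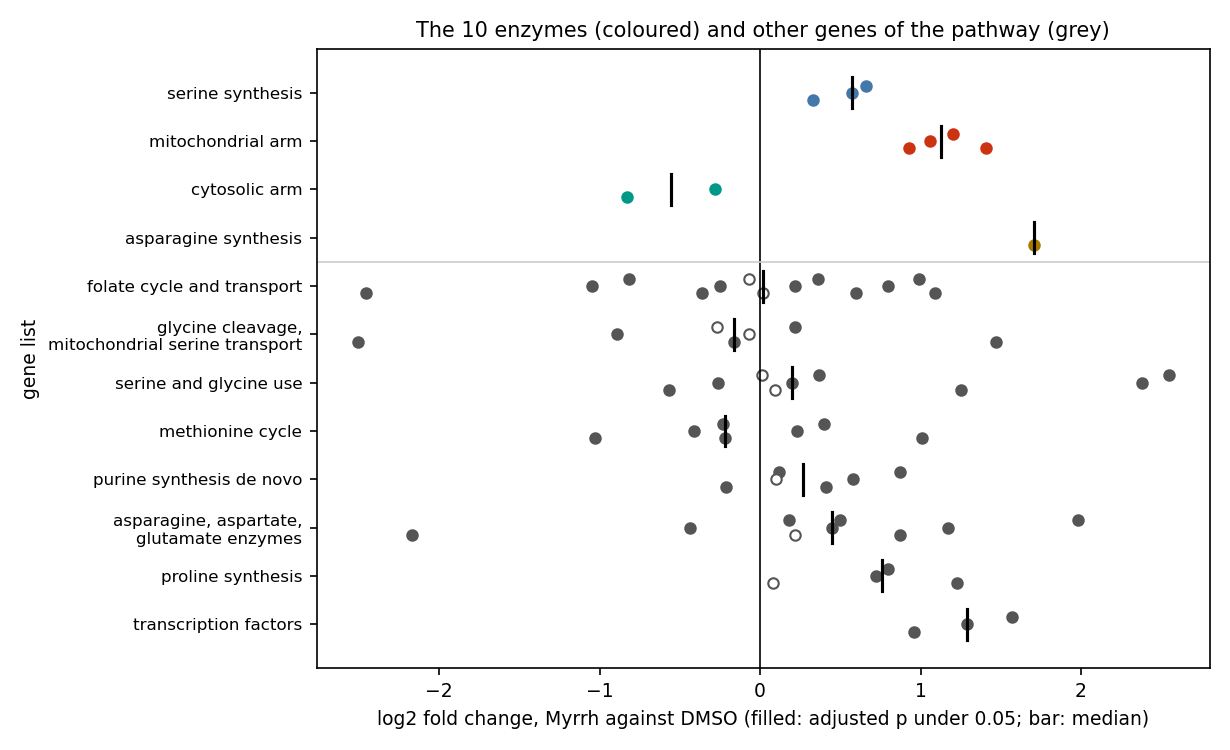
Log2 fold change, Myrrh against DMSO, of each tested gene (points) by list. The 10 enzymes are coloured above the line, and neighbouring pathways and linked transcription factors are grey below. Filled points passed an adjusted p of 0.05 and black bars are medians. The mitochondrial and cytosolic arms lie on opposite sides of 0, and the folate, glycine cleavage and methionine lists spread to both sides.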

How the data were processed

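RNA-seq libraries of 12Z cells were made from 1.5 µg of total RNA, per the labels' protocols, with no word on poly(A) selection. The authors deposited estimated counts per gene, not scaled between libraries, and log2(TPM + 1) values. The submitters' processing notes name STAR, RSEM 1.3.1 and GRCh38; for the annotation, trimming and strand, nothing is given in the sources used here. Titles gave the groups.

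Estimated counts were rounded, filtered with filterByExpr and scaled with TMM factors (0.934 to 1.05), and 16395 genes were tested with edgeR 4.0.16 (R 4.3.3; glmQLFit, robust, two-sided, no block), with a threshold of 0.05. SE was taken as log2 fold change over √F. TPM was recovered by undoing the log. Log2 count ratios had 0.5 added to each count. The test was checked on simulated data in which few genes were changed. There 9% of calls were false, above the threshold, and 52.4% of 1.3-fold and 82.8% of 2-fold changes were recovered. Far more genes were called in the real data, so these shares need not hold for the reported calls. Libraries of a group differed by more than sampling noise (chi-square per degree of freedom 3.65 to 8.71).

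The 10 members and the lists were chosen with earlier results of these data known. From each list the called genes with the highest and lowest log2 fold change at a mean of at least 5 CPM are named, with MTHFD2L, ALDH1L1 and ATF4. Alternatives were filters, scalings, DESeq2 1.42.0, limma 3.58.1 on TPM, a replicate block and leaving out each library. One marker gene is not reported here.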

Additional observations from a re-analysis of the deposited data

How the results depend on the processing

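Each of the 10 enzyme genes kept its direction and its call in all 15 alternatives, and 8 were called higher and 2 lower in each. The ranges were 1.57 to 1.76 for ASNS, 1.27 to 1.57 for MTHFD2, 1.06 to 1.28 for SHMT2, 0.91 to 1.12 for MTHFD1L, 0.79 to 1.0 for ALDH1L2, 0.51 to 0.72 for PSAT1, 0.42 to 0.64 for PHGDH, 0.19 to 0.37 for PSPH, -0.50 to -0.25 for MTHFD1 and -0.98 to -0.70 for SHMT1. The highest adjusted p was 0.0095, for PSPH. Scaling by library totals moved the median of all genes from -0.02 to -0.16, gave 5378 genes called higher and 7479 lower in place of 6436 and 6418, and gave the lowest value for each gene except MTHFD1. Under that scaling, and with at least 5 CPM in 3 libraries, 3 and not 4 genes reached a 2-fold change. Over all genes, 11835 to 13901 were called, or 10079 with the stricter filter, against 12854. Over their 9 alternatives, the change in log2 ratio was 1.99 to 2.09 for SHMT2 to SHMT1, 1.64 to 2.07 for MTHFD2 to MTHFD1, 1.32 to 1.62 for MTHFD1L to MTHFD1 and 1.01 to 1.09 for MTHFD2 to MTHFD2L.

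The labels do not pair same-numbered libraries, and their deviations were hardly correlated (-0.06, -0.005 and 0.036). With 3 libraries a group, this cannot tell whether same-numbered libraries shared a culture or a batch. With a replicate block 12782 genes were called, the 10 enzymes among them, and the paired exact permutation test gave p = 0.25 for each ratio, the smallest that 3 pairs allow. ALDH1L1 had too few counts to be tested, and 3 libraries a group limit the ratio tests.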

Other observations

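Some genes of the same pathways lie outside the rule for named genes and were chosen after their values were seen. SDSL, a serine dehydratase-like gene, rose by 2.38 ± 0.09, from 5.20 ± 0.663 to 26.9 ± 1.58 CPM, and GCAT, a mitochondrial enzyme of glycine and threonine metabolism, by 1.25 ± 0.09, from 9.62 ± 1.32 to 22.7 ± 0.393 CPM. FTCD, which passes one-carbon units from histidine breakdown to folate, fell by 2.46 ± 0.22, from 5.22 ± 0.648 to 0.935 ± 0.368 CPM. GLDC, the glycine decarboxylase, was scarce and rose by 1.47 ± 0.38 to 0.77 ± 0.124 CPM, while AMT of the same system fell. GPT fell by 2.17 ± 0.34 to 0.293 ± 0.0964 CPM, and its mitochondrial relative GPT2 rose by 1.17 ± 0.05, from 40.6 ± 1.42 to 91.5 ± 2.54 CPM. The difference between GPT2 and GPT was not tested. The highest adjusted p among these genes was 0.00119, for GLDC, in the edgeR fit over all genes.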
